A study of Mus musculus with 6 samples.

Results

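Kit and its closest relatives were followed through the withdrawal of an overexpressed microRNA. The family held 7 genes, the class III receptor tyrosine kinase genes Kit, Flt3, Csf1r, Pdgfra and Pdgfrb and the ligand genes Kitl and Flt3l, chosen by gene symbol. Each had 1 entry under its symbol, and all 7 were among the 18543 tested entries of a table of 29209. The family was put together with its values in this comparison known, so the members' folds and p-values below are a description and support nothing by themselves.

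RNA came from subcutaneous tumours in NCr nude mice, grown from splenic cells of diseased mice with the mir-155LSLtTA allele. In the DOX group (3 samples) miR-155 was withdrawn by 16 hours of doxycycline, given in chow at 2.3 mg per kg, and in the no DOX group (3 samples) nothing was given and miR-155 stayed overexpressed. Both groups carried the same allele and the same host background, and no tumour without the allele received doxycycline. The labels leave unsaid whether 2 samples of 1 group can share an animal, so the p-values cover the spread among these 6 samples and that spread may be technical.

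Class III receptors carry immunoglobulin-like domains outside the cell and a tyrosine kinase split by an insert inside it. A dimeric ligand pairs 2 receptors, which then phosphorylate each other and recruit adaptors, phosphoinositide 3-kinase, phospholipase C gamma, Src family kinases and the RAS-ERK cascade. In blood formation Kit and Flt3 serve progenitors and Csf1r serves macrophages, while Pdgfra and Pdgfrb serve fibroblasts and pericytes.

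The manipulated regulator was miR-155, whose main mature strand lies at chr16:84714143-84714165 on the plus strand (RefSeq, GRCm38.p6). It is shown, 5′ to 3′ with the seed (bases 2 to 8) in capitals, beside the best seed matches in the 3' UTRs of the receptor Kit and its ligand Kitl, with the matching bases in capitals (GENCODE M21, GRCm38). These sequences are shown because a seed match in the 3' UTR is where a microRNA pairs with a transcript.
mmu-miR-155-5p: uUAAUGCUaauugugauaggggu
Kitl site: gatcagtgggtAGCATTAgtgccatcctg
Kit site: gtacagccctgGCATTAgacctactgtg

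The Kitl window holds the 7-mer AGCATTA, which pairs with seed bases 2 to 8, at bases 2602 to 2608 of a 3' UTR of 4435 bases. Of the 3 annotated Kitl 3' UTRs 1 holds a 7-mer seed match, against 2 of 2 for Csf1r. Kit, with a 3' UTR of 2177 bases, has no 7-mer and 1 copy of the 6-mer GCATTA (seed bases 2 to 7), at bases 788 to 793. Csf1r has 1 copy each of AGCATTA and the other 7-mer, GCATTAA, and these overlap to form the 8-mer, which 3.27% of 14052 3' UTRs of tested genes hold. Flt3, Flt3l, Pdgfra and Pdgfrb have none of these words in their longest annotated 3' UTR. Over all 14052, 13.5% hold a 7-mer of either kind and 21.1% the 6-mer. Among 3' UTRs within 20% of the length of Kit's, 29.0% hold the 6-mer, and among those within 20% of the length of Kitl's 35.9% hold a 7-mer. Within 20% of the length of Csf1r's 14.6% hold a 7-mer, and the share with the 8-mer at that length was not counted. Single matches like those of Kit and Kitl are thus not rare at their lengths. The matches are letters in annotated sequence, and pairing was not measured.

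Folds were taken as DOX divided by no DOX. The table does not name its numerator, and each direction and order of folds given here turns round if the division was made the other way.

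Kit, the receptor for stem cell factor, was the entry with the smallest p-value of the table. The ratio of DOX to no DOX in the authors' deposited table was 0.0524. Read that way, DOX tumours held 5.24% of the Kit RNA of no DOX tumours, a 19.1-fold lower level, and with the division turned Kit would be 19.1-fold higher in DOX tumours. Its log2 fold was -4.25 with an adjusted p of 1.76e-23, which ranks 1 of 18543 tested entries by the authors' deposited table. The table holds no value per sample, so whether the 3 DOX samples and the 3 no DOX samples overlap cannot be read from it. A standard error was instead taken back from the fold and its p-value through a normal approximation. It came to 0.39 for Kit, with a 95% interval of -5.02 to -3.49 on the log2 scale. Only 27 of 15784 entries with a finite ratio had a lower log2 fold than Kit in the authors' deposited table, and 20 of those passed an adjusted p of 0.05.

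A gene is said to have risen or fallen where the authors' adjusted p was under 0.05, which held for 11.3% of tested entries, 5.72% higher with DOX and 5.61% lower. Of the 7 family members 2 rose, 1 fell and 4 did not pass. Since the family was chosen with these values known, nothing is read from that share. The gene lists used below were also chosen with earlier results of these data known, so their shares are descriptions. In bulk RNA, fewer cells of a type and less RNA per cell cannot be told apart.

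**Figure D1:**
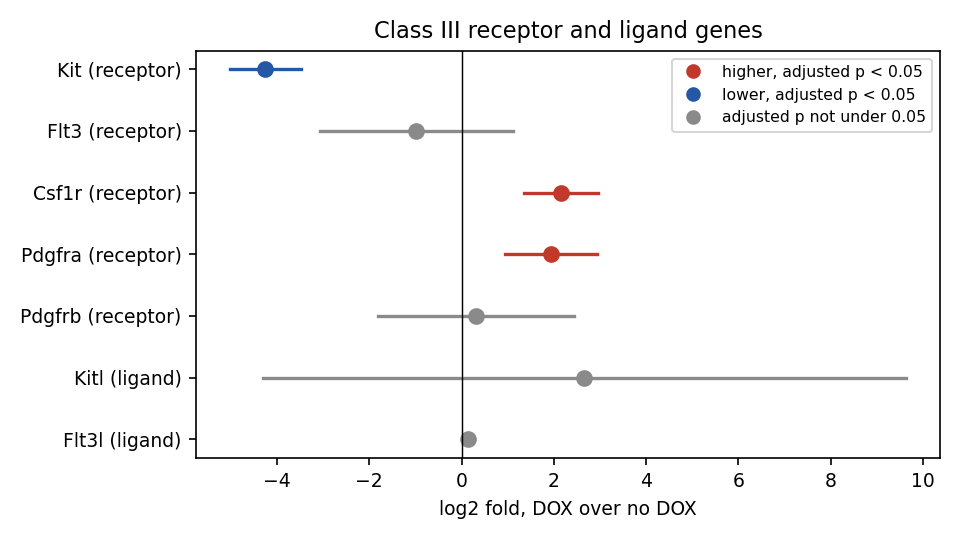
Log2 fold of DOX over no DOX (x axis) for the 5 receptor and 2 ligand genes (y axis), from the authors' deposited table. Points are folds and bars the 95% interval implied by fold and p, with none for Flt3l, whose p was 1. Kit (-4.25) lies far below 0, Csf1r (2.16) and Pdgfra (1.95) above it, and the bars of the others cross 0.

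Flt3, the receptor that with Kit marks early lymphoid progenitors, leaned the same way as Kit without passing. Its ratio in the authors' deposited table was 0.508 (log2 fold -0.98, adjusted p = 0.738). The implied standard error was 1.07 and the interval ran from -3.07 to 1.12, so a fall and a rise of over 2-fold both lie inside it. The interval of Flt3 overlapped 0 and ended above that of Kit, but the difference between the 2 genes was not tested.

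Csf1r, the receptor for macrophage colony-stimulating factor and a gene reported as a miR-155 target, rose. The ratio was 4.47 in the authors' deposited table (log2 fold 2.16, adjusted p = 1.45e-05), rank 171 by p. Its implied interval was 1.36 to 2.96 (standard error 0.41). Csf1r thus moved opposite to Kit with a standard error of similar size. Markers of macrophages, the cells that carry Csf1r, leaned upward in the same comparison. All 20 of 20 tested had a fold above 1, log2 folds from the authors' deposited table ranged from 0.17 to 4.75 with a median of 1.90, and 4 rose, 20.0% against 5.72% of all entries. Over all tested entries with a finite ratio the median was 0.17 and 55.9% had a fold above 1. Those that rose, by log2 folds from the authors' deposited table, were Mertk (3.30), which clears dying cells, Ccr2 (2.78), a receptor of monocyte chemokines, the pore-forming protein gene Mpeg1 (2.50) and the lipoprotein gene Apoe (1.93). The part of macrophage content in the Csf1r fold was not tested.

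Pdgfra, the alpha receptor for platelet-derived growth factor, also rose. Its ratio in the authors' deposited table was 3.86 (log2 fold 1.95, adjusted p = 0.00313), rank 753 by p, with an implied interval of 0.95 to 2.95. Its call ended under a Bonferroni adjustment of the authors' DESeq p-values (adjusted p = 1). Of 12 fibroblast markers, 11 had a fold above 1, with a median of 2.33 and log2 folds from -2.80 to 3.74 in the authors' deposited table. Of the 12, 1 rose, 8.33% against 5.72% of all entries. It was Postn, a matrix protein gene (log2 fold 3.74 in the authors' deposited table), and the collagen genes Col1a1 (2.50), Col1a2 (2.26) and Col3a1 (2.41) did not pass. The part of fibroblast content in the Pdgfra fold was not tested.

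Pdgfrb, the beta receptor and a pericyte gene, had a ratio of 1.25 in the authors' deposited table (log2 fold 0.32, adjusted p = 1). Its implied interval, -1.80 to 2.44, held the fold of Pdgfra, so the data do not separate the 2 receptors for the same ligand family. Of 11 pericyte markers 9 had a fold above 1, with a median of 1.87 in the authors' deposited table, and 0 rose or fell (0 also at an unadjusted p under 0.05, by the authors' DESeq p-values, which 22.4% of all entries had). The fold of Pdgfrb lay below that median.

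Neither ligand passed. Kitl, which encodes stem cell factor, had a ratio of 6.33 in the authors' deposited table, with a log2 fold of 2.66 that did not pass (adjusted p = 0.827). The implied standard error of 3.56 was larger than that of 95.7% of the 13930 entries that have one, and the interval ran from -4.31 to 9.63. A rise and a fall of Kitl of over 2-fold both lie inside it, so its direction was not detectable here. Flt3l, which encodes the ligand of Flt3, had a ratio of 1.11 in the authors' deposited table (log2 fold 0.15, adjusted p = 1), and at a p of 1 no standard error can be taken back.

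**Figure D2:**
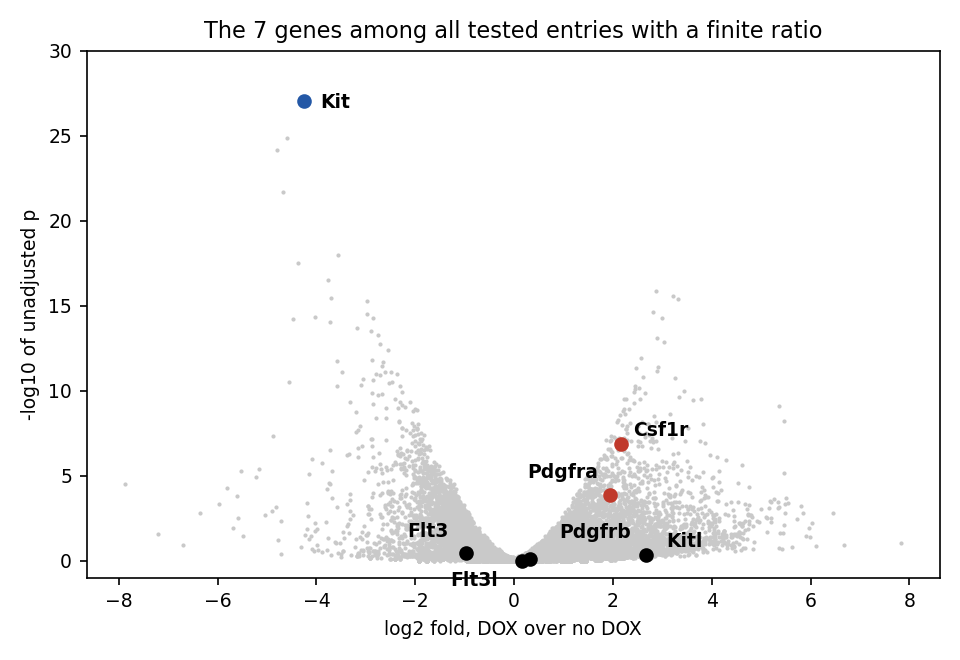
Each grey point is 1 of 15784 tested entries with a finite ratio, with log2 fold of DOX over no DOX on the x axis and -log10 of the authors' unadjusted p on the y axis; the 7 genes are labelled, blue where lower, red where higher, black where not called. Kit stands at the top left, Csf1r and Pdgfra on the right, and Kitl at the foot of the plot in spite of a log2 fold of 2.66.

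The ligands of the other class III receptors were read from a list of 6. Pdgfc, a ligand of Pdgfra, rose, with a ratio of 36.6 in the authors' deposited table (log2 fold 5.19, adjusted p = 0.032). Csf1, the first ligand of Csf1r, had a log2 fold of 1.38 (adjusted p = 0.0569) in the authors' deposited table, just outside the threshold. Il34, its second ligand and listed as 2010004A03Rik, stood at -0.95 (adjusted p = 1) by the authors' deposited table. Of the other platelet-derived growth factor genes, Pdgfa had a log2 fold of 3.78 (adjusted p = 0.457) and Pdgfb one of 0.08 (1) in the authors' deposited table. Pdgfd is listed there with an infinite ratio and an adjusted p of 1. In all 1 of 6 rose and 0 fell, against 5.72% and 5.61% of all entries.

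Against the other receptor tyrosine kinases with a finite ratio Kit stood at one end. A list of 53 receptor genes outside class III had 46 tested members, of which 6 rose and 0 fell. The rises were 13.0% of the 46, against 5.72% higher and 11.3% called among all entries. By the authors' DESeq p-values, 12 of the 46 were higher and 0 lower at an unadjusted p under 0.05. Of all entries, 11.9% were higher and 10.4% lower at that threshold. A ratio of 0 is listed for 1 of the 46, Epha1, which did not pass, and an infinite ratio for 11. Of the 34 with a finite ratio none had a log2 fold below that of Kit, and the lowest was Tyro3, at -2.63 (adjusted p = 0.451) in the authors' deposited table. By the same order Flt3 had 1 of the 34 below it, Pdgfrb 11, Pdgfra 23 and Csf1r 24. The median of the 34 was 0.93, against 0.17 over all entries. The receptors that rose were led by Mertk, the hepatocyte growth factor receptor gene Met (2.50), the insulin-like growth factor receptor gene Igf1r (3.14) and the epidermal growth factor receptor gene Egfr (2.70), as log2 folds in the authors' deposited table. The insulin receptor gene Insr (0.99) followed in the authors' deposited table, and Ephb3, an ephrin receptor gene, also rose, with an infinite ratio for which no fold is given. Mertk is also on the macrophage list.

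Signalling genes downstream of Kit moved in both directions. Of 36 effector genes 3 rose and 2 fell, 13.9% called against 11.3% of all entries, and their median log2 fold was -0.24. Src, a kinase that binds activated receptors, fell with a log2 fold of -4.60 (adjusted p = 1.19e-21) in the authors' deposited table, a change of the size of Kit's. Plcg2, the phospholipase C gamma of blood cells, fell (-1.51, adjusted p = 0.000591) in the authors' deposited table. Its relative Plcg1 rose (1.12, adjusted p = 0.0417) by the authors' deposited table. The kinase gene Braf, which acts between RAS and ERK, rose (1.79, adjusted p = 0.000432) in the authors' deposited table. Pik3ca, a catalytic subunit of phosphoinositide 3-kinase, rose (1.08) at the edge of the threshold (adjusted p = 0.0497) in the authors' deposited table. Grb2, Shc1, Ptpn11 and Pik3r1, which bind the phosphorylated receptor, stood at -0.76, -0.23, -0.52 and 0.37 on the log2 scale by the authors' deposited table, and none passed.

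Among 17 genes that restrain Kit signalling, 1 fell and 0 rose, with a median log2 fold of -0.14. The fall was 5.88% of the list, against 5.61% lower and 11.3% called among all entries. Ptpn6, the SHP-1 phosphatase that acts on Kit, fell, with a log2 fold of -2.35 (adjusted p = 4.4e-05) in the authors' deposited table. The ubiquitin ligase genes Cbl (-0.42) and Cblb (0.67), the adaptor gene Sh2b3 (-0.45) and the lipid phosphatase gene Inpp5d (-0.14) did not pass by the authors' deposited table.

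Genes that the ERK cascade is known to induce were lower where they passed. Of 15 listed, 14 were tested, 4 fell and 0 rose, 28.6% lower against 5.61% of all entries, with a median log2 fold of -1.28. Besides Myc (-4.80), these were the ETS factor genes Etv5 (-1.88) and Etv4 (-2.96) and the cyclin gene Ccnd1 (-2.85), as log2 folds in the authors' deposited table. The feedback inhibitor genes Spry4 (-4.02, adjusted p = 0.0504) and Dusp6 (-1.34, 0.105) did not pass by the authors' deposited table. The early response genes Fos (2.89, adjusted p = 0.327) and Egr1 (-0.67, 0.634) likewise missed the threshold by the authors' deposited table, and ERK activity itself was not measured. Because the list, Myc included, was chosen with earlier results of these data known, nothing is read from its share.

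**Figure D3:**
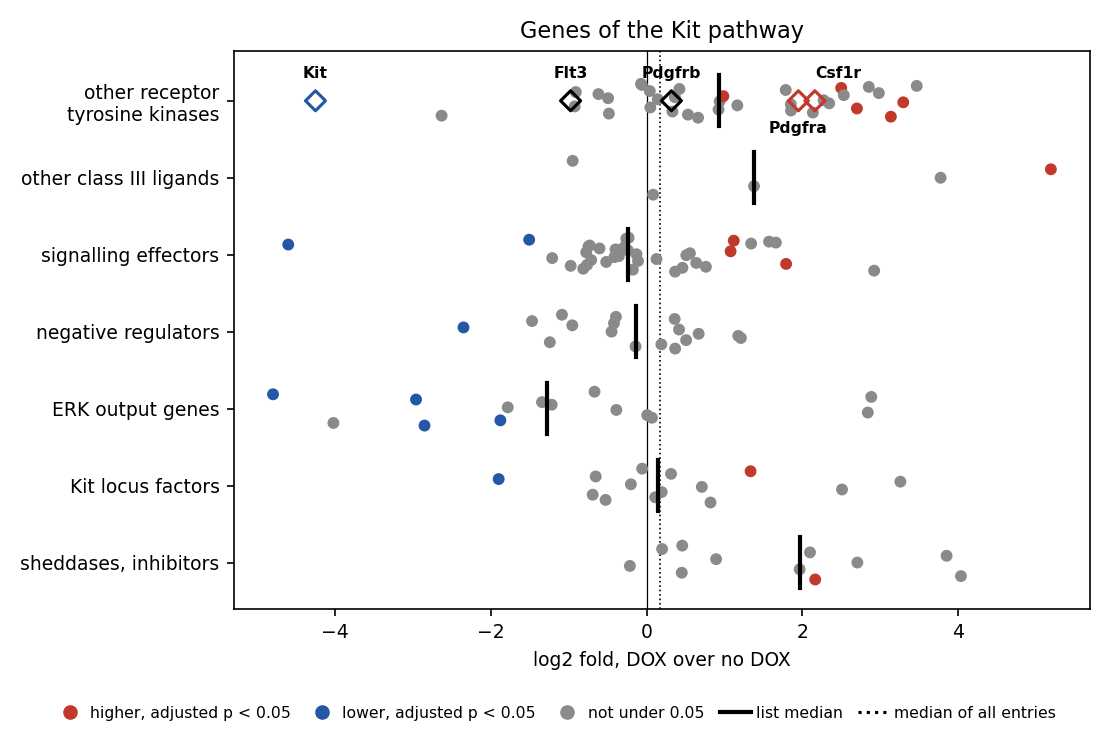
Log2 fold of DOX over no DOX (x axis) for the genes of 7 lists (rows) with a finite ratio, from the authors' deposited table. Filled points are list genes, bars list medians, the dotted line the median of all entries (0.17), and diamonds in the top row the 5 class III receptors. Kit lies left of each other receptor plotted, and the ERK output row has its median at -1.28.

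The transcription factors known to act at the Kit locus showed 1 rise and 1 fall among 16 tested of 17, 12.5% called and so near the 11.3% of all entries. Myb, a progenitor factor, rose (log2 fold 1.34, adjusted p = 0.00198) and Lyl1, a relative of Tal1, fell (-1.90, adjusted p = 0.00407) in the authors' deposited table. Tal1 (0.11), Lmo2 (-0.53), Runx1 (0.82) and Mitf (2.51) did not pass by the authors' deposited table, and Gata2 is listed with an infinite ratio and an adjusted p of 0.937. Enzymes that shed receptor and ligand ectodomains, with their inhibitors, gave 1 rise among 11, or 9.09% called, also near that share. It was the protease gene Mmp9 (2.17, adjusted p = 0.0252 in the authors' deposited table). Adam17, an enzyme that sheds Kit, had a log2 fold of 0.20 (adjusted p = 0.925) in the authors' deposited table.

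The cells that normally carry Kit were looked for through their markers. Of 12 mast cell markers only 5 were tested, and 0 rose or fell. At an unadjusted p under 0.05, by the authors' DESeq p-values, 1 was higher, where 11.9% of all entries were. Among the defining ones Cpa3 is listed with a ratio of 0, Tpsb2 and Cma1 with an infinite ratio, and the authors' deposited table leaves Fcer1a, Ms4a2 and Mcpt4 untested. Of 12 haematopoietic progenitor markers 10 were tested and 0 rose or fell, and 1 was higher at an unadjusted p under 0.05, by the authors' DESeq p-values, again beside 11.9%. 5 of the 10 have an infinite ratio, and Cd34 had a log2 fold of 1.14 (adjusted p = 0.829) in the authors' deposited table. Neither list held a member that fell with Kit. Their part in the Kit fold was not tested, and the table gives no levels by which to say how abundant these cells were.

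Pro-B and pre-B markers, the lymphoid stages that carry Kit or Flt3, gave calls on both sides. Of 17 tested, 5 rose and 2 fell, 41.2% called against 11.3% of all entries, with a median log2 fold of 0.86. Among those that rose were Rag1, of the V(D)J recombinase (5.46), the interleukin 7 receptor gene Il7r (4.14) and the factor genes Sox4 (1.39) and Ebf1 (1.61) in the authors' deposited table. The surrogate light chain genes Igll1 (-1.14) and Vpreb2 (-1.43) fell in the authors' deposited table. The general B lineage genes Cd79a (-0.27) and Pax5 (0.86) did not pass by the authors' deposited table. The part of B lineage content in the folds of Kit and Flt3 was not tested. Dendritic cell markers, from cells that need Flt3, had 2 rises among 12, Siglech (4.77) and the factor gene Tcf4 (1.44) in the authors' deposited table. The rises were 16.7% of the list, against 5.72% higher and 11.3% called among all entries. Of the 12, 9 had a fold above 1 and 3 below, with finite log2 folds from -0.86 to 4.77 and a median of 1.44 in the authors' deposited table. The sign of Flt3 (-0.98) was opposite to that median. Endothelial markers had 1 fall among 10, beside 11.3% called over all entries, namely Eng (-1.04 in the authors' deposited table), and a median of 1.39.

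**Figure D4:**
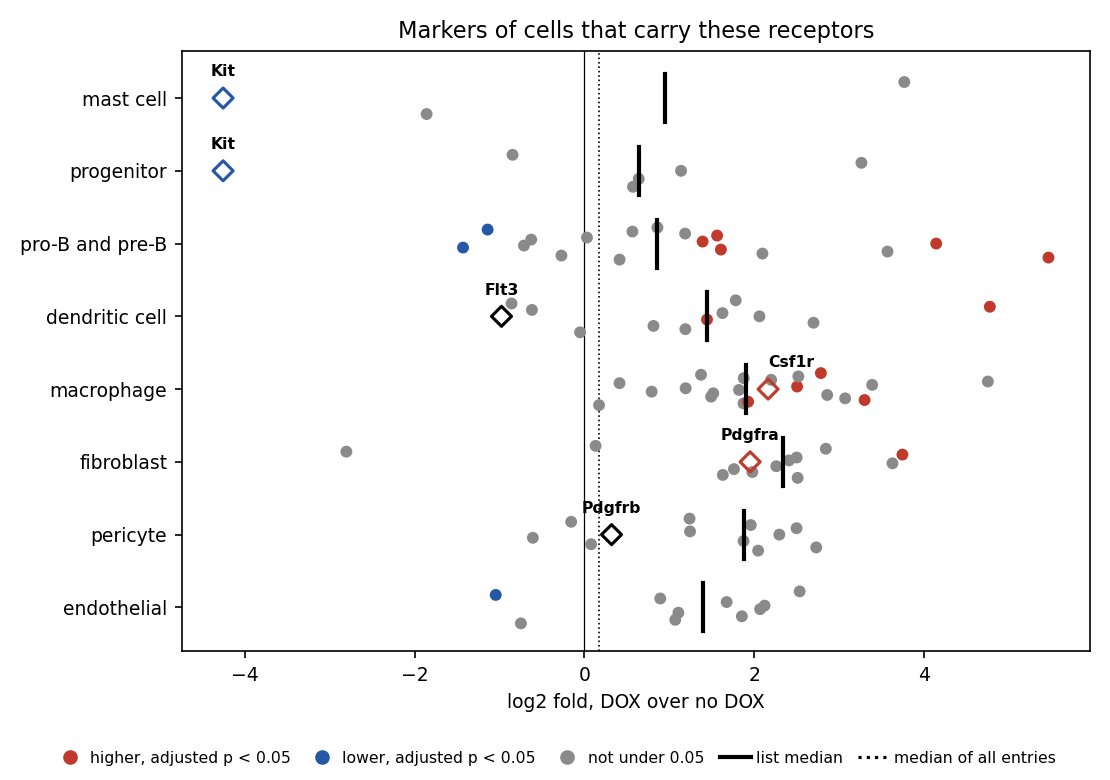
Log2 fold of DOX over no DOX (x axis) for markers of 8 cell types (rows) with a finite ratio, from the authors' deposited table, with list medians as bars, the median of all entries as a dotted line, and each receptor as a diamond in the row of cells that carry it. Csf1r (2.16) and Pdgfra (1.95) lie within the spread of macrophage and fibroblast markers, and Kit lies below each mast cell and progenitor marker plotted.

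Family members sit side by side in the genome yet differed in fold. On chromosome 5 Pdgfra, Kit and the endothelial receptor gene Kdr are consecutive protein-coding genes in RefSeq. By the authors' deposited table they stood at 1.95, -4.25 and 0.04 on the log2 scale (adjusted p = 1 for Kdr). Pdgfrb and Csf1r are likewise neighbours, on another chromosome, and stood at 0.32 and 2.16 on the log2 scale by the authors' deposited table. The implied intervals of Pdgfra (0.95 to 2.95) and Kit (-5.02 to -3.49) did not overlap, whereas those of Pdgfrb (-1.80 to 2.44) and Csf1r (1.36 to 2.96) did.

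The promoters of the chromosome 5 neighbours, which moved in opposite directions, are shown from 250 bases before to 50 after the start (RefSeq, GRCm38.p6, plus strand). Kit lies at chr5:75574737-75575036 and Pdgfra at chr5:75152001-75152300. Capitals mark matches, on either strand, to any of 4 motifs. These were the SP1 motif GGGCGG, the blood cell zinc finger factor motif AGATAA, the E-box motif CAGNTG and the MYB motif CNGTTA. No matches overlap in these windows.
Kit promoter: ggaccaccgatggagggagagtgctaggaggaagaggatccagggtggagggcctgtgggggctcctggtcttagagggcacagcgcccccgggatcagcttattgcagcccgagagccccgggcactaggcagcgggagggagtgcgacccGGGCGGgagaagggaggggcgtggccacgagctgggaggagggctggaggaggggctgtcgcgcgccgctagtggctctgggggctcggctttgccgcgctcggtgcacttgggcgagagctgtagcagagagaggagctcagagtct
Pdgfra promoter: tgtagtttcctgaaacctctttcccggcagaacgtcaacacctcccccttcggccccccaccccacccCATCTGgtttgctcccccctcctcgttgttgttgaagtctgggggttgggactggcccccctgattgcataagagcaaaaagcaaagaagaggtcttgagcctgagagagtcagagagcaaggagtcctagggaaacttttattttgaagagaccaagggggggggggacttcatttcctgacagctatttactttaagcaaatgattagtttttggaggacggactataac

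The Kit window is 69.0% GC and holds 1 GGGCGG, a word found in 35.9% of 27025 promoters of this length. The Pdgfra window is 51.0% GC and holds 1 CAGNTG, found in 51.1%. Neither holds AGATAA (11.4% of promoters) or CNGTTA (23.2%). Kitl has 3 GGGCGG, Flt3l has 1 GGGCGG and 2 CAGNTG, and Flt3 has 1 CAGNTG. Csf1r and Pdgfrb are named only.

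Kit went against the trend of calls with transcript length. Across tested protein-coding genes, the decile of longest transcripts had 14.6% higher and 2.98% lower, and the decile of shortest 0.71% higher and 15.0% lower. The longest Kit transcript, at 5241 bases, falls in decile 9 of 10 from the shortest, where 8.95% of 1408 genes were higher and 3.27% lower. Pdgfra (6834 bases) falls in decile 10 and Csf1r (4701 bases) in decile 8, where 6.53% were higher and 4.47% lower, so by length both rose where rises were the more frequent call. By GC content Kit and Pdgfra, at 48.5% and 48.1%, share decile 4, where 5.11% were higher and 6.25% lower. Csf1r, at 54.5%, falls in GC decile 8, where 2.27% were higher and 9.58% lower, so by GC it rose where falls were the more frequent call. The part of length or GC in any member's fold was not tested.

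**Figure D5:**
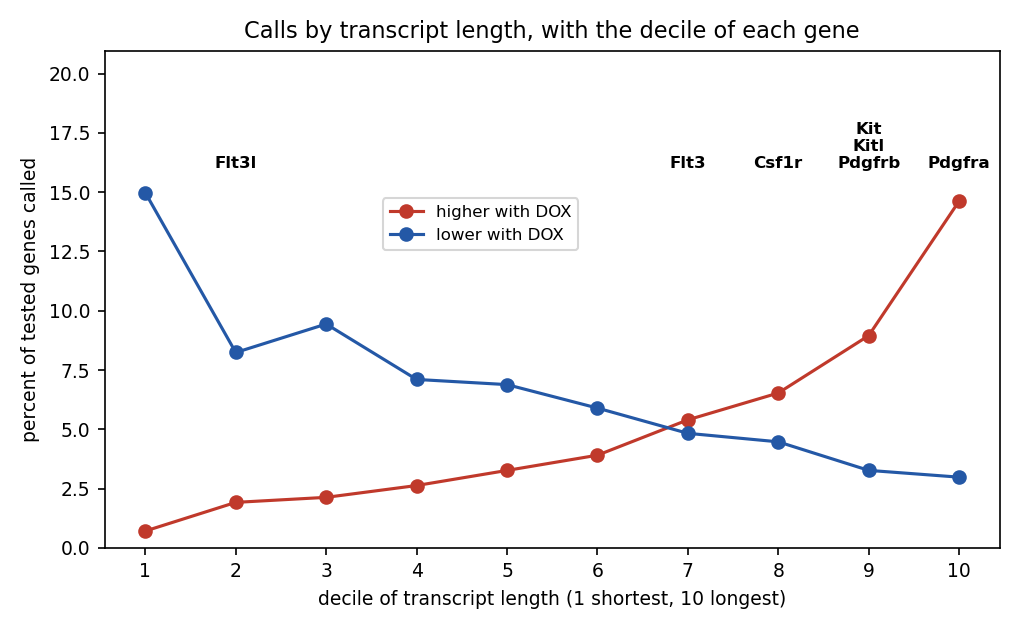
Percent of tested protein-coding genes called higher (red) or lower (blue) with DOX (y axis) in each decile of transcript length (x axis, 1 shortest, 10 longest), with the 7 genes named above their own decile. Kit, Kitl and Pdgfrb stand in decile 9, where 8.95% were higher and 3.27% lower.

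Entries like Kit were sought among 426 outside the family that had a matched current symbol, a finite ratio and an adjusted p under 0.001. The most like were those whose log2 fold lay nearest to that of Kit, a likeness over 1 comparison of 3 samples against 3. They were BC048355, now Dnph1, which encodes a nucleotide hydrolase (-4.15), and Plcl4, now Plch2, a phospholipase C gene (-4.38), in the authors' deposited table. Next came Gcat, of threonine and glycine metabolism (-4.08), and Cish, a cytokine signalling inhibitor that STAT5 is known to induce (-4.03), in the authors' deposited table. The difference from Kit ran from 0.10 to 0.22 on the log2 scale.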

How the data were processed

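RNA sequencing was done on 6 tumour samples, 3 with DOX and 3 without, as total RNA cleared of ribosomal RNA, per the labels' protocols. RSEM, DESeq and build mm9 are named, with no version, per the submitters' processing notes. The authors deposited 1 table of their own comparison. Per the file headers it gives a linear fold (ratio), an unadjusted p-value and an adjusted one. Values of single samples, group means and library totals are absent from it, so depth is unknown and samples could not be tested. The deposited adjusted p matched a Benjamini-Hochberg adjustment of 18543 entries within 2.09e-06. Of these, 15784 have a finite ratio, 2180 are Inf and 579 are 0, and medians use finite ratios.

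Log2 folds were computed from the ratio (Python 3.11.15, numpy 2.4.6, pandas 2.3.3). The implied standard error is the size of the log2 fold divided by the normal deviate of its p (scipy 1.17.1), for p up to 0.9. DESeq's test is not a normal one, so it is approximate. Entries were matched to current symbols in 11736 cases by symbol, in 1457 by accession and in 2022 by a synonym of 1 gene only, which left 3328 unmatched. Lists use 1 entry per symbol, and 237 of 255 listed genes were tested, of which those not named enter the counts and medians only. GENCODE M21 and RefSeq are on GRCm38, not mm9, and served for transcript sequence, gene order and the printed sequences only. Length and GC are those of a gene's longest coding transcript, and seeds were sought in its longest 3' UTR.

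The members and the 15 lists were chosen with earlier results of these data known. Genes were named by rule, namely the 7 members, called list members up to 6 a list, and the 4 entries nearest to Kit, and uncalled list genes named beside them were chosen after their values were seen. Only the Benjamini-Hochberg step and the counting of sequence words were tested on simulated data. Alternatives were the threshold, Bonferroni, finite ratios, protein-coding matches, 1 entry per symbol and other seed matches.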

Additional observations from a re-analysis of the deposited data

How the results depend on the processing

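The count of 3 called family members (2 higher, 1 lower) was 3 at an adjusted p under 0.01 or 0.1, with finite ratios, with protein-coding matches and with 1 entry per symbol, and 2 (Kit and Csf1r) under Bonferroni. Kit and Csf1r passed under each of these 6 settings. Over all entries, 2101 calls became 1145 at an adjusted p under 0.01 and 291 under Bonferroni, and the 34 called list genes became 20 and 4, all by construction stricter. Under the other settings these counts stayed within 1.5 times, though with protein-coding matches 785 were higher and 1032 lower and with 1 entry per symbol 737 and 1024, against 1060 and 1041. The setting of 1 entry per symbol was chosen after seeing the data. Members with a seed match numbered 2 by 7-mer in the longest or in any annotated 3' UTR, and 3 by 6-mer. No paired analysis was possible because the deposited table holds no value per sample, and for the same reason leaving out replicates, another normalization and a filter on low values were not run. Depth is unknown, so the low precision of Kitl, Flt3 and Pdgfrb cannot be traced to read number.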

Other observations

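Of the listed genes, 10 have a second tested entry under another name, left out of the counts above. Stat5a, which carries signals from Kit and Flt3, is one of them, at -0.75 under its own symbol and 1.65 under Stat5A (adjusted p = 0.306) in the authors' deposited table. The 7 family members are on none of the lists, and entries of theirs under another name were not sought.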
